A study of Mus musculus with 30 samples.

Results

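The 9 genes Prrx1, Prrx2, Pdgfra, Pdgfrb, Postn, Lepr, Acta2, Pi16 and Dpp4 mark limb mesenchyme, periosteal progenitors and the stromal and perivascular cells around bone. They were found by symbol among the 55416 gene IDs of the count table, and all 9 had 1 ID each. They were followed in RNA sequencing of fracture callus from 30 mice. The callus followed a closed, non-stabilized tibial fracture made at 7 to 12 weeks of age, and it was collected at 3, 6, 10 or 14 days post fracture (dpf). P-Apex1KO mice carry the Prrx1-Cre transgene and 2 conditional alleles of Apex1 (Prrx1-Cre;Apex1 C/C). Prrx1-Cre is active in limb mesenchyme from the embryo on, so hematopoietic, endothelial and other callus cells keep Apex1. WT littermates were of mixed genotype (Apex1 C/+, Apex1 C/C, or Prrx1-Cre with Apex1 C/+), so a WT mouse could carry Cre and a deleted allele, and the labels do not say which did. There were 4 WT and 4 P-Apex1KO mice at 3-dpf, 5 and 3 at 6-dpf, 4 and 3 at 10-dpf, and 4 and 3 at 14-dpf. Both sexes were present in every group except P-Apex1KO at 14-dpf, where all 3 mice were female and 1 of 4 WT mice was.

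A fracture is repaired largely by mesenchymal cells of the periosteum, which expand, lay down a fibrous and cartilaginous callus and then turn to bone. Prrx1 and Prrx2 are paired-type homeobox transcription factors of the limb bud, and Prrx1 is the gene whose regulatory sequence drives the Cre. Pdgfra and Pdgfrb are receptor tyrosine kinases for platelet-derived growth factors, with Pdgfrb strong on pericytes. Lepr, the leptin receptor, marks the stromal cells of adult bone marrow. Postn encodes periostin, a matricellular protein of the periosteum, and Acta2 encodes smooth muscle alpha-actin of contractile and mural cells. Pi16 and Dpp4 mark adventitial fibroblasts, and Dpp4 (CD26) is also a surface peptidase of lymphocytes.

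Library totals ran from 18334389 to 43111491 counts, and the lowest count of any of the 9 genes in any library was 126, so the number of mice limits the precision more than counting error does. Apex1, read first as a check of the labels, gave 15.1, 15.2 and 15.9 CPM (counts scaled to library size) in the P-Apex1KO mice at 6-dpf, below the 5 WT mice (20.7 to 28.9). At 3-dpf the libraries labelled P-Apex1KO read 18.4, 29.1, 27.6 and 34.6 CPM for Apex1, and replicate 4 lay above all 4 WT mice (26.5 to 33.1). At 10-dpf the P-Apex1KO libraries read 14.05 to 16.82 CPM, just below the WT libraries at 16.95 to 27.54 CPM. At 14-dpf they read 14.2 to 18.6 CPM, below the WT libraries at 19.8 to 27.2 CPM. In these calluses the summed level of 12 osteoblast markers was lower in P-Apex1KO from 6-dpf on. That of 13 endothelial markers was lower at 10- and 14-dpf. Those of 16 skeletal muscle, 12 macrophage and 14 T and NK cell markers were mostly higher. Fewer cells of a type and less RNA per cell cannot be told apart in bulk tissue. Sample names change between 6- and 10-dpf, so time and sample series cannot be told apart across that break. Levels were not tested across it, and only the change of the genotype difference was.

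Compared per kilobase of exon, Postn was the most abundant of the 9 in every group. In WT mice it stood at 306 ± 29.6 CPM per kb (SD, n = 4) at 3-dpf, followed by Acta2 at 74.7 ± 7.17. Pdgfrb, Pdgfra and Prrx1 came next at 23.5, 20.1 and 14.9 CPM per kb, and their ranges overlapped from one to the next. Pi16 followed at 10.3, Lepr and Prrx2 overlapped at 4.97 and 4.74, and Dpp4 was lowest at 2.7. At 14-dpf the WT order was another. Pdgfrb stood second at 46.2 ± 6.21 CPM per kb behind Postn at 87.4 ± 12.2, while Pdgfra, Prrx1, Lepr and Acta2 lay between 24.6 and 19.5 with overlapping ranges. In P-Apex1KO mice at 14-dpf Acta2 was second, at 36 ± 9.45 CPM per kb, and Pi16, Pdgfrb, Prrx1, Pdgfra and Lepr overlapped from one to the next between 16.5 and 8.29.

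**Figure D1:**
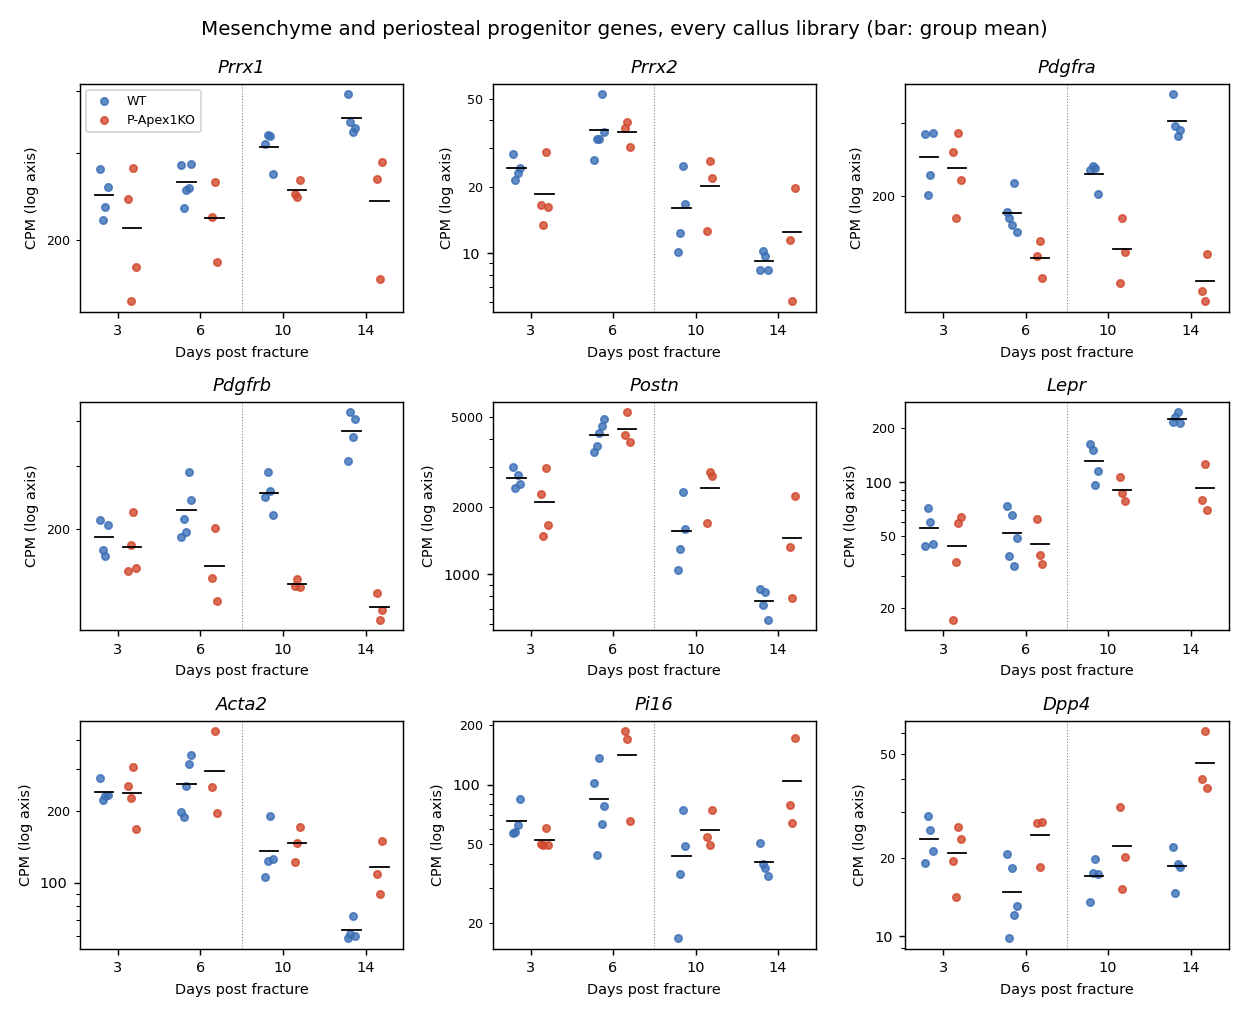
Level of each gene in every callus library, in CPM on a log axis, against days post fracture. Blue points are WT mice, red points P-Apex1KO mice and black bars group means, and the dotted line separates the 2 series of sample names. Pdgfra and Pdgfrb of the 3 P-Apex1KO mice lie below all 4 WT mice at 10- and 14-dpf, and Lepr does so at 14-dpf.

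The 2 PDGF receptors were the clearest difference between the genotypes, both lower in P-Apex1KO callus at 10- and 14-dpf. At 3-dpf, Pdgfra read 282, 200.4, 224 and 283 CPM in WT mice and 254, 177, 283 and 218 CPM in P-Apex1KO mice, so the groups overlapped. At 6-dpf it read 183, 177, 170.4, 215 and 164 CPM in WT and 143, 155 and 127 CPM in P-Apex1KO. All 3 P-Apex1KO mice lay below all 5 WT mice there, yet the difference of -0.36 ± 0.11 (log2 fold change ± SE) did not pass the threshold (adjusted p = 0.0686). At 10-dpf the WT mice read 230.3, 236, 233 and 202 CPM and the P-Apex1KO mice 123, 177 and 147 CPM. Pdgfra was there 1.52-fold lower, at a log2 fold change of -0.61 ± 0.13 (adjusted p = 0.0312). At 14-dpf Pdgfra stood at 351, 294, 279 and 288 CPM in WT and 118, 112 and 145 CPM in P-Apex1KO. With sex in the model it was 2.76-fold lower, at -1.47 ± 0.15 (adjusted p = 0.00143). That value rests on the only WT female, at 351 CPM the highest WT mouse.

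Pdgfrb followed the same course. At 6-dpf the P-Apex1KO mice, at 146, 201 and 126 CPM, overlapped the WT mice, at 190.4, 213, 196, 289 and 241 CPM, and the difference was -0.54 ± 0.17 (adjusted p = 0.0699). At 10-dpf the 4 WT mice read 245, 288, 255 and 218 CPM and the P-Apex1KO mice 139, 145 and 138 CPM. The groups were apart by 1.75-fold, at -0.81 ± 0.10 (adjusted p = 0.00858). At 14-dpf Pdgfrb stood at 309.6, 422, 359 and 405 CPM in WT and at 133, 112 and 119 CPM in P-Apex1KO. With sex in the model it was 2.52-fold lower, at -1.33 ± 0.13 (adjusted p = 0.00117). That value rests on the only WT female, at 309.6 CPM the lowest WT mouse. At 3-dpf its difference was -0.09 ± 0.14.

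Lepr was lower in P-Apex1KO callus at the same late time points. At 3- and 6-dpf the genotypes overlapped, from 34.1 to 74 CPM in the 9 WT mice and from 17.2 to 64.1 CPM in the 7 P-Apex1KO mice. At 10-dpf it read 163, 150.0, 95.9 and 115 CPM in WT and 107, 87 and 78.3 CPM in P-Apex1KO, and the groups overlapped. The difference at 10-dpf was 1.34-fold, at -0.42 ± 0.09 (adjusted p = 0.0395). At 14-dpf WT callus stood at 215, 229, 244 and 213 CPM and P-Apex1KO callus at 80.2, 126 and 70.4 CPM, with no overlap. Lepr was then 2.28-fold lower with sex in the model, at -1.19 ± 0.28 (adjusted p = 0.0384). That value rests on the only WT female, at 215 CPM.

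These 3 calls were the members lower at 10-dpf, 3 of 9 where 3.44% of all 18910 genes tested were called lower and 6.46% were called either way. At 14-dpf they were again 3 of 9, against 7.04% of 20228 genes called lower and 11.3% called either way. No member was called higher at either time point. The median difference of the 9 was -0.18, 0.04, 0.05 and 0.59 at 3-, 6-, 10- and 14-dpf, beside -0.00, 0.01, -0.00 and 0.04 over all genes tested. The groups did not overlap for 3 of 9 members at 10-dpf, all with P-Apex1KO below WT, beside 10.5% of genes tested below and 19.3% either way. At 14-dpf they did not for 7 of 9 (42% of genes tested), 4 with P-Apex1KO below (23.4%) and 3 with it above (18.5%). At 10-dpf the Pdgfra call was lost on leaving out WT replicate 1, 2 or 3 or P-Apex1KO replicate 1 or 3 (adjusted p up to 0.184), and the Lepr call on leaving out WT replicate 1, 2 or 4 or P-Apex1KO replicate 1 or 3 (up to 0.237). The Pdgfrb call was lost without P-Apex1KO replicate 1 (0.0655), and at 14-dpf the Lepr call without WT replicate 2, 3 or 4 or P-Apex1KO replicate 1 (up to 0.0810). Summed osteoblast markers ran from 71640.4 to 97833 CPM in WT and from 17887 to 19251 CPM in P-Apex1KO at 14-dpf. Summed endothelial markers ran from 1129 to 1222 CPM in WT and from 833 to 969 CPM in P-Apex1KO there. The part of either in these results was not tested.

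The limb homeobox genes passed at no single time point. Prrx1 read 313, 326, 324 and 273 CPM in WT and 248, 244 and 265 CPM in P-Apex1KO at 10-dpf, where all P-Apex1KO mice lay below all WT mice. The difference was -0.27 ± 0.09 and did not pass (adjusted p = 0.122). At 14-dpf the WT mice read 395, 347, 331 and 337 CPM and the P-Apex1KO mice 266, 167 and 287 CPM, again without overlap, at -0.69 ± 0.25 (adjusted p = 0.123). At 3- and 6-dpf the genotypes overlapped, at -0.20 ± 0.19 and -0.18 ± 0.13. Prrx2, which overlaps Prrx1 in role in the limb bud, varied more between mice. Its P-Apex1KO mice overlapped the WT mice at every time point, with 11.5, 6.06 and 19.8 CPM against 8.42, 10.3, 9.70 and 8.44 CPM at 14-dpf, and none of its 4 differences passed (-0.36 to 0.59).

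Dpp4 and Pi16, the adventitial fibroblast markers, stood higher in several P-Apex1KO groups, and Dpp4 at 6-dpf was the only member called there. Dpp4 read 20.7, 9.83, 18.2, 12 and 13 CPM in WT and 27, 18.4 and 27.5 CPM in P-Apex1KO at 6-dpf. That is 1.88-fold higher, at 0.91 ± 0.20 (adjusted p = 0.0188), with 1 P-Apex1KO mouse inside the WT range. It was 1 of 9 members where 5.31% of 20260 genes tested were called higher and 10.9% either way. For 1 of 9, Pdgfra, the groups did not overlap at 6-dpf, with P-Apex1KO below WT, as for 11.9% of genes tested (20.6% either way). The call was lost without WT replicate 2 (adjusted p = 0.0746), WT replicate 4 (0.0674) or P-Apex1KO replicate 1 (0.0502), and without the sex term (0.0678). At 14-dpf Dpp4 read 21.9, 14.7, 19.0 and 18.5 CPM in WT and 40.1, 61.0 and 37.1 CPM in P-Apex1KO, with no overlap, at 1.10 ± 0.31 (adjusted p = 0.0649). At 10-dpf the difference was 0.39 ± 0.24, and it turned to -0.08 without P-Apex1KO replicate 1, whose 31.4 CPM was the highest of that time point.

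Pi16 at 6-dpf gave 102, 44.5, 136, 63.4 and 78.5 CPM in WT and 186, 171 and 65.9 CPM in P-Apex1KO, at 1.03 ± 0.30 (adjusted p = 0.0622). At 14-dpf it gave 50.9, 39.7, 38.1 and 34.8 CPM in WT and 78.9, 64.3 and 172 CPM in P-Apex1KO, without overlap, at 1.07 ± 0.53 (adjusted p = 0.244). Lymphocyte markers moved in the same libraries. The summed level of 14 T and NK cell markers ran from 39.6 to 62.3 CPM in WT and from 59.4 to 94.7 CPM in P-Apex1KO at 6-dpf, and from 44.2 to 49.1 CPM and 85.4 to 154 CPM at 14-dpf. The 11 B cell markers summed to 154 to 277 CPM in WT and 199 to 368 CPM in P-Apex1KO at 6-dpf, with overlap. At 14-dpf they summed to 286 to 344 CPM in WT and 417 to 1039.97 CPM in P-Apex1KO. None of these markers was at 0 throughout a group, and their part in the Dpp4 level was not tested.

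Postn and Acta2, the matricellular and contractile members, passed at no single time point. At 6-dpf Postn read 3526, 3719, 4244, 4562 and 4903 CPM in WT and 4165, 5261 and 3907 CPM in P-Apex1KO, and the difference was 0.10 ± 0.18. At 10-dpf it read 1045, 1294, 2324 and 1594 CPM in WT and 1698, 2856 and 2752 CPM in P-Apex1KO, at 0.54 ± 0.16 (adjusted p = 0.0868). At 14-dpf it read 865, 734, 833 and 628 CPM in WT and 1324, 782 and 2239 CPM in P-Apex1KO, at 0.77 ± 0.52 (adjusted p = 0.385), and 1 P-Apex1KO mouse lay inside the WT range. Acta2 at 14-dpf read 58.4, 61.1, 72.9 and 59.7 CPM in WT and 109, 90.0 and 149.6 CPM in P-Apex1KO. The groups did not overlap, at 1.02 ± 0.28 (adjusted p = 0.0595). At 3-, 6- and 10-dpf its differences were 0.01 ± 0.17, 0.19 ± 0.29 and 0.05 ± 0.15.

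**Figure D2:**
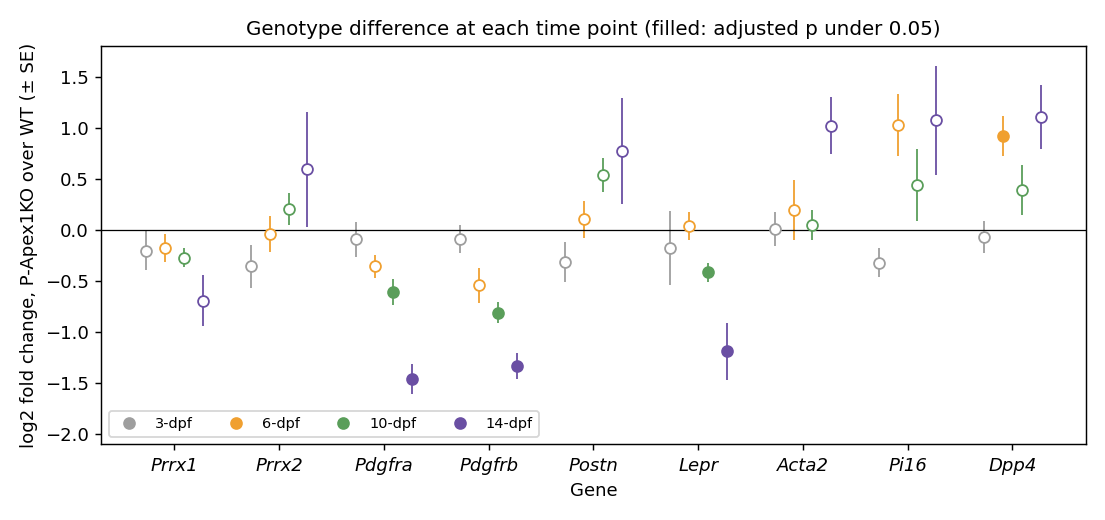
Log2 fold change of P-Apex1KO over WT for each gene at 3-, 6-, 10- and 14-dpf, with standard errors as vertical lines. Filled points passed an adjusted p of 0.05 in edgeR's quasi-likelihood test, which Dpp4 did at 6-dpf and Pdgfra, Pdgfrb and Lepr did at 10- and 14-dpf.

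At 3-dpf no member was called, and none of 19866 genes was called (0%), with 1216 genes and no member at an unadjusted p under 0.05 and 85 genes called by DESeq2. The genotypes overlapped for all 9 members there, against 3.66% of genes tested that did not overlap. Apex1 itself overlapped at 3-dpf, at 26.5 to 33.1 CPM in WT and 18.4 to 34.6 CPM in P-Apex1KO. The 14-dpf differences carry a further limit, because with sex in the model they rest on WT replicate 1, the only WT female. That mouse was the highest WT mouse for Prrx1, Pdgfra, Postn, Pi16 and Dpp4 and the lowest for Prrx2, Pdgfrb and Acta2. Without the sex term, 8 of 9 members were called at 14-dpf, with Prrx1, Pdgfra, Pdgfrb and Lepr lower and Postn, Acta2, Pi16 and Dpp4 higher, where 6849 of 18410 genes tested were called. Leaving out WT replicate 1 sets 3 female P-Apex1KO mice against 3 male WT mice, so that genotype and sex cannot be told apart. That fit called 6 members and 6181 of 18101 genes tested, but not Prrx1 (-0.45), Prrx2 or Postn (1.03). The 8 members called with all mice included the 3 calls of the sex-adjusted fit, at -1.24, -1.59 and -1.24 for Pdgfra, Pdgfrb and Lepr.

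Averaged over 6-, 10- and 14-dpf in a model of all 30 mice, 8 of 9 members differed. This contrast called 39.7% of 20642 genes, 21.8% lower and 17.9% higher, so many genes differed alongside the members. Lower in P-Apex1KO were Pdgfrb at -0.99 ± 0.09 (adjusted p = 1.09e-08), Pdgfra at -0.74 ± 0.09 (2.75e-07), Lepr at -0.73 ± 0.15 (0.000541) and Prrx1 at -0.37 ± 0.10 (0.00312). Higher were Pi16 at 0.83 ± 0.23 (0.00598), Dpp4 at 0.75 ± 0.12 (3.42e-05), Postn at 0.56 ± 0.16 (0.00706) and Acta2 at 0.40 ± 0.14 (0.0298). Prrx2 was at 0.28 ± 0.18 (0.232). Over 6- and 10-dpf alone, 3 members remained called where 4467 of 20642 genes were, Pdgfrb at -0.69, Pdgfra at -0.49 and Dpp4 at 0.61. The average of Acta2 also lost its call without P-Apex1KO replicate 2 of 6-dpf (0.27, adjusted p = 0.131), WT replicate 1 or P-Apex1KO replicate 3 of 10-dpf or P-Apex1KO replicate 3 of 14-dpf, and that of Prrx1 with library size alone as the scale (-0.19, 0.0687).

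Relative to Prrx1 in the same library, a measure that no scaling of libraries can change but that moves with Prrx1 itself, 7 of the other 8 genes did not overlap between the genotypes at 14-dpf. Pdgfra was counted 0.890, 0.847, 0.844 and 0.854 times per Prrx1 count in WT and 0.445, 0.667 and 0.505 times in P-Apex1KO. For Pdgfrb the ratio was 0.784, 1.21, 1.09 and 1.20 in WT and 0.499, 0.667 and 0.413 in P-Apex1KO. These were the 2 of 8 genes whose P-Apex1KO ratios lay below all WT ratios, as did those of 3.11% of genes tested. The ratios of Prrx2, Postn, Acta2, Pi16 and Dpp4 lay above all WT ratios, as did those of 46.8% of genes tested. The levels of Prrx2 and Postn themselves overlapped. The Acta2 ratios were 0.148, 0.176, 0.220 and 0.177 in WT and 0.409, 0.538 and 0.521 in P-Apex1KO. The Lepr ratios overlapped, although its levels did not. P-Apex1KO replicate 2, with the lowest Prrx1 and the highest Lepr of the 3, stood at 0.755 beside 0.301 and 0.245. At 3-dpf all 8 ratios overlapped, where those of 2.95% of genes tested did not.

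**Figure D3:**
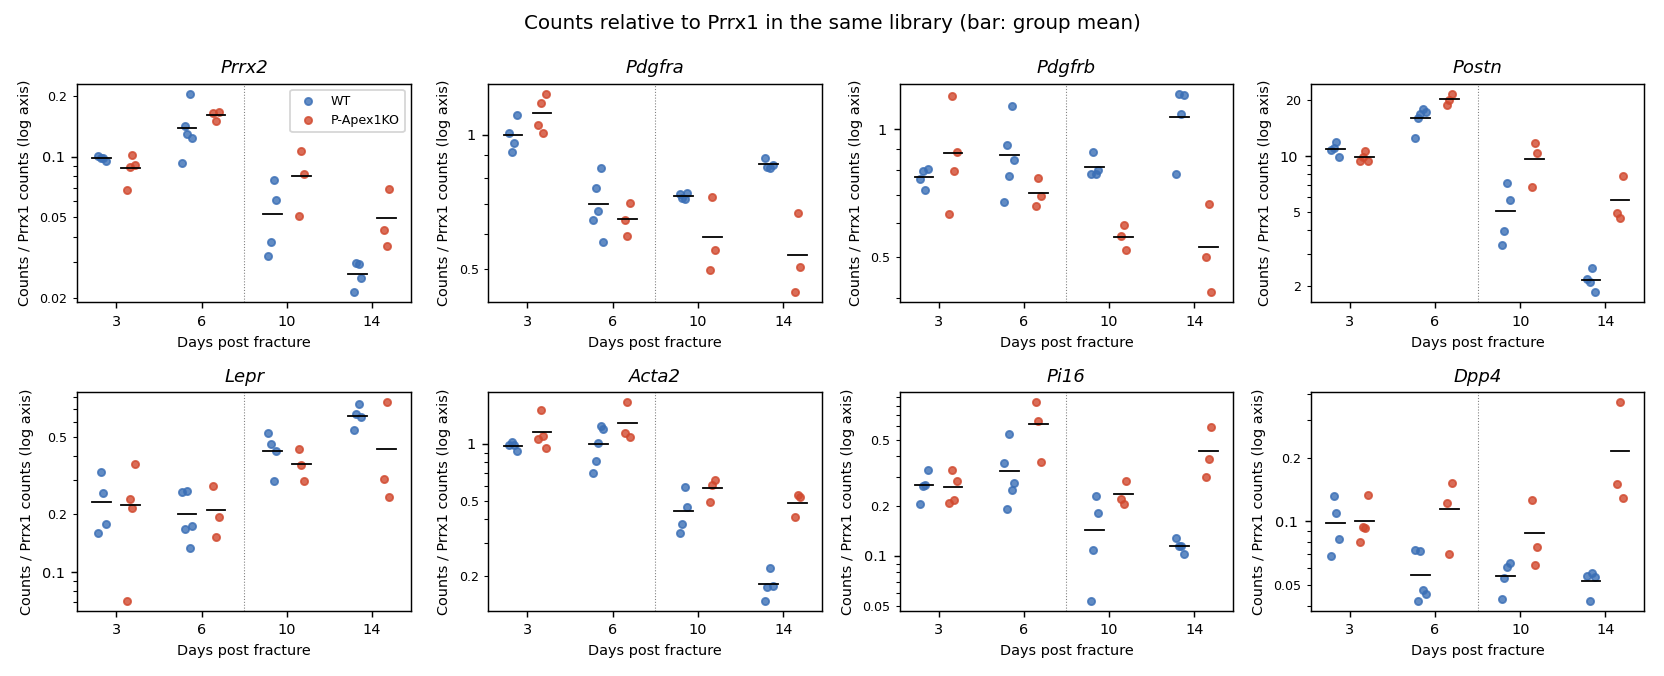
Counts of 8 genes divided by the Prrx1 count of the same library, on a log axis, against days post fracture, with WT mice in blue, P-Apex1KO mice in red and group means as black bars. At 14-dpf the P-Apex1KO ratios of Pdgfra and Pdgfrb lie below all WT ratios, and those of Prrx2, Postn, Acta2, Pi16 and Dpp4 above them.

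The course over time differed in what was called in each genotype, although no member passed the test of that difference itself. From 3- to 6-dpf in WT mice, Pdgfra fell by 0.47 on the log2 scale (adjusted p = 0.0167), Dpp4 fell by 0.78 (0.00268) and Postn rose by 0.59 ± 0.18 (0.0207), 3 of 9 members where 30.5% of genes changed. In P-Apex1KO mice Pdgfra fell by 0.71 (0.00807), and Postn rose by 1.09 ± 0.20 (0.00269), Prrx2 by 0.93 ± 0.25 (0.0220) and Pi16 by 1.36 ± 0.32 (0.0133), 4 of 9 members where 14% of genes changed. The change of the genotype difference from 3- to 6-dpf was largest for Pi16 at 1.15 ± 0.43 (adjusted p = 0.264) and Dpp4 at 0.99 ± 0.25 (0.0746), and 0 of 9 members passed where 1.3% of genes did. The Dpp4 value passed with DESeq2 (0.0167), which called more genes in all. Several of these calls did not hold with 1 mouse fewer. The WT calls of Pdgfra and Postn and the P-Apex1KO calls of Prrx2 and Pi16 were each lost on leaving out any 1 of several libraries (adjusted p up to 0.106).

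From 10- to 14-dpf in WT mice, Lepr rose by 0.88 ± 0.18 (adjusted p = 0.00781), Pdgfrb by 0.55 ± 0.11 (0.00765) and Pdgfra by 0.42 ± 0.12 (0.0403). In the same mice Acta2 fell by 1.20 (0.00113) and Postn fell by 1.09 (0.0350), which made 5 of 9 members where 11.1% of genes changed. In P-Apex1KO mice 0 of 9 members passed where 0.259% of genes did. There 1 member had an unadjusted p under 0.05, beside 2811 of 19705 genes. With DESeq2, which called more genes in all, 1 passed, Dpp4 at 0.95. The P-Apex1KO changes ran from -0.45 ± 0.38 for Postn to 1.08 ± 0.52 for Pi16. The change of the genotype difference was -1.06 ± 0.30 for Lepr (adjusted p = 0.167), -0.74 ± 0.19 for Pdgfrb (0.132), -0.70 ± 0.21 for Pdgfra (0.178) and 1.10 ± 0.28 for Acta2 (0.132). None of the 9 passed where 0.436% of genes did. Of the 9, 4 had an unadjusted p under 0.05, beside 2577 of 19705 genes. DESeq2, which called more genes in all, called 3, Pdgfrb, Lepr and Acta2. The WT calls of Pdgfra and Postn were lost on leaving out any of several single libraries (adjusted p up to 0.222 and 0.134). From 6- to 10-dpf 0 of 9 changed in genotype difference, where 3.28% of genes did, and DESeq2 called none of the 9.

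The ligands of the 2 PDGF receptors were lower at the same time points. Of 4 ligand genes, Pdgfa, Pdgfb and Pdgfd were called lower at 10-dpf, at -0.51 ± 0.09 (adjusted p = 0.0232), -0.80 ± 0.13 (0.0163) and -0.50 ± 0.11 (0.0401), and again at 14-dpf, at -0.80 ± 0.17 (0.0257), -1.22 ± 0.11 (0.000928) and -1.20 ± 0.17 (0.00534). The medians of the 4 were -0.50 and -1.0, beside 0.00 and 0.04 over all genes tested. Of all genes tested, 3.44% and 7.04% were called lower at 10- and 14-dpf. With sex in the model, the 14-dpf values of the ligands and of the lists below also rest on the only WT female. At 6-dpf Pdgfc was called higher, at 0.46 ± 0.12 (0.0377), where 5.31% of all genes tested were. Of 8 genes of leptin receptor signalling, none was called at 6- or 10-dpf and Ptpn1, a phosphatase that acts on JAK2, was lower at 14-dpf (-0.46 ± 0.10, 0.0242). At 6-, 10- and 14-dpf, 10.9%, 6.46% and 11.3% of all genes tested were called.

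Of 24 limb mesenchyme transcription factors, Shox2 (-0.76 ± 0.18) and Hoxa9 (-0.50 ± 0.11) were lower at 6-dpf, where 10.9% of all genes tested were called. None was called at 10-dpf, where 6.46% of genes tested were. At 14-dpf 4 of 23 tested were lower, where 7.04% of all genes tested were, and none higher. These were Twist1 at -1.87 ± 0.18 (adjusted p = 0.00114), Msx1 at -1.36 ± 0.23 (0.00955), Shox2 at -1.14 ± 0.22 (0.0169) and Zfp423 at -0.94 ± 0.19 (0.0182). Shox2 shapes the proximal limb skeleton, and Twist1 and Msx1 hold mesenchyme undifferentiated. The list's median was -0.34 at 14-dpf, beside 0.04 over all genes.

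Among 22 skeletal stem and stromal progenitor genes, 4 were lower and 4 higher at 6-dpf, where 10.9% of all genes tested were called. Lower were Gli1 at -1.48 ± 0.25, the target and effector of hedgehog signalling, Cd200 at -1.47 ± 0.16, Nt5e and Foxc1. Higher were Ly6a (Sca-1) at 1.06 ± 0.13, Il7 at 0.95 ± 0.23, Adipoq and Vcam1. At 10-dpf Ctsk, Itgav and Nes were lower and Adipoq (1.53 ± 0.24) and Vcam1 (0.65 ± 0.11) higher, where 6.46% of all genes tested were called. Adipoq is foremost an adipocyte gene, and 10 adipocyte markers summed to 115 to 146 CPM in WT and 193 to 322 CPM in P-Apex1KO at 10-dpf. At 14-dpf 6 were lower, where 7.04% of all genes tested were, and none higher. The largest falls were those of Ctsk, the cathepsin of osteoclasts that also marks periosteal stem cells, at -2.40 ± 0.26, and of Foxc1, a factor of marrow reticular cells, at -1.46 ± 0.24. The medians lay at 0.08, 0.03 and -0.07.

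Other adventitial fibroblast genes were called beside Dpp4 at 6-dpf, where Pi16 did not pass. Of 18, 7 were called higher there, where 5.31% of all genes tested were, among them Has1, a hyaluronan synthase, at 2.11 ± 0.26 (adjusted p = 0.00205) and Tnxb, tenascin X, at 1.13 ± 0.15 (0.00235), and Pcolce2 was lower at -1.28 ± 0.34 (0.0437). The median was 0.38, beside 0.01 over all genes. The summed level of the 18 overlapped at 6-dpf, from 2179 to 2872 CPM in WT and from 2200 to 3286 CPM in P-Apex1KO. At 10-dpf Entpd2 alone passed, at 0.70 ± 0.16, where 6.46% of all genes tested were called. At 14-dpf 3 were higher, Efemp1 at 1.54 ± 0.33, Pcolce2 at 1.16 ± 0.30 and Cd55, and the median was 0.58. Of all 20228 genes tested at 14-dpf, 865 were called higher.

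Of 12 contractile genes that accompany Acta2 in smooth muscle, Ldb3 (1.16 ± 0.26), Tpm2 (1.06 ± 0.23) and Synpo2 were higher at 6-dpf, where 5.31% of all genes tested were, and none was called later. These 3 are also expressed in striated muscle, and 16 skeletal muscle markers summed to 6756 to 12379 CPM in WT and 15060.5 to 32342.5 CPM in P-Apex1KO at 6-dpf, a part that was not tested. Of 10 pericyte genes, 2 were lower and none higher at 6- and 14-dpf, and 2 were lower and 1 higher at 10-dpf, where 10.9%, 11.3% and 6.46% of all genes tested were called at 6-, 14- and 10-dpf. Cspg4 (NG2) and Ndufa4l2 were lower at 6-dpf, at -2.02 ± 0.21 and -1.92 ± 0.30, and Notch3 was lower at 10- and 14-dpf, at -0.62 ± 0.09 and -1.01 ± 0.11. Vtn was higher at 10-dpf (1.31 ± 0.26). Cspg4 is also expressed in cartilage, and 14 cartilage markers summed to 37180 to 66083 CPM in WT and 3267 to 6270.3 CPM in P-Apex1KO at 6-dpf.

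Of 17 matricellular and adhesive matrix genes, the company of Postn, Fn1 (-1.12 ± 0.25) and Sparc (-0.83 ± 0.23) were lower at 6-dpf. At 10-dpf Ccn4 and Tnc were lower, at -0.87 ± 0.13 and -0.83 ± 0.18, with Bmp1, and Tnn (0.77 ± 0.17) and Tgfbi (0.72 ± 0.16), a close relative of Postn, were higher. At 14-dpf Tnc, tenascin C, was lower at -1.96 ± 0.16 (adjusted p = 0.000883), as were Bmp1 (-1.59 ± 0.15), Sparc and Ccn4, and Ltbp2 was higher at 1.23 ± 0.25. The calls of the 17 were 2, 5 and 5 at 6-, 10- and 14-dpf, beside 10.9%, 6.46% and 11.3% of all genes tested. None of the genes called in these 8 lists turned in sign under another scaling. Library size alone shifted the median of all genes by 0.20 at 6-dpf and 0.31 at 14-dpf, and with it the medians of the limb factors at 6-dpf and of the progenitor, pericyte and leptin lists at 14-dpf turned positive.

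**Figure D4:**
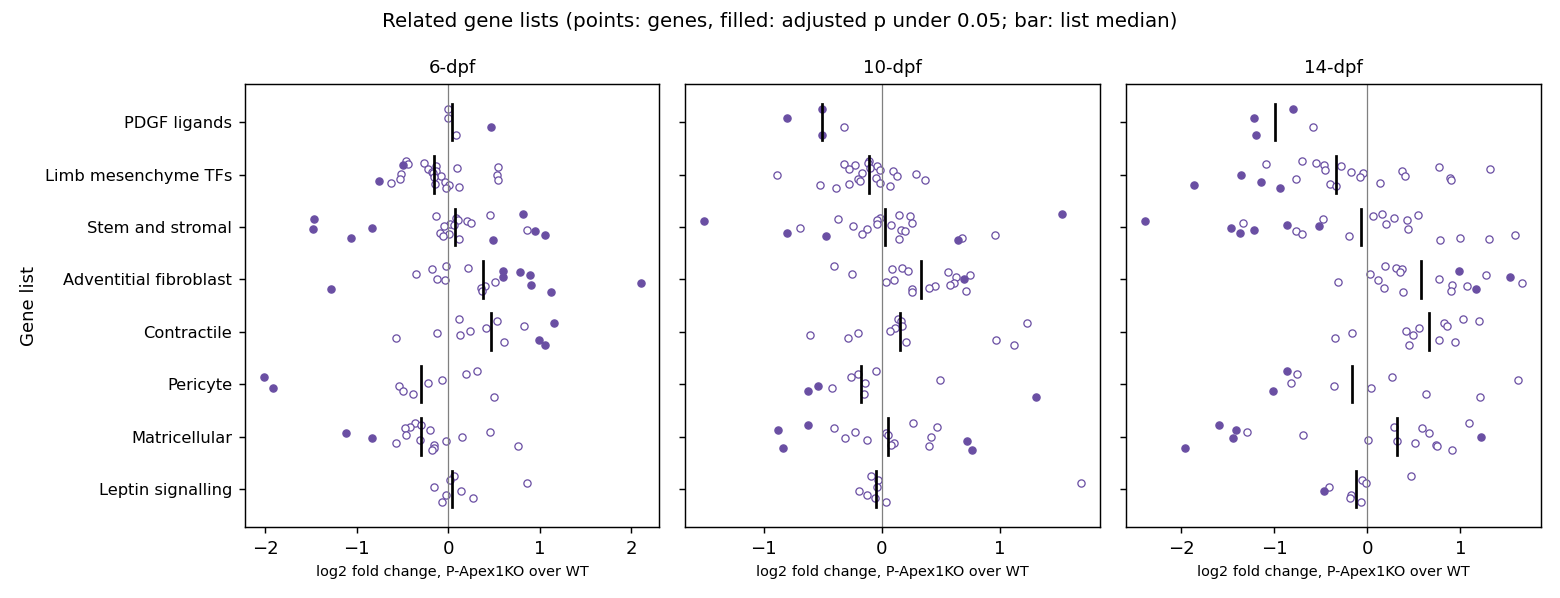
Log2 fold change of P-Apex1KO over WT for the genes of 8 related lists at 6-, 10- and 14-dpf. Each point is a gene, filled where its adjusted p was under 0.05, and the black bar is the median of the list, which for the PDGF ligands lies at -1.0 at 14-dpf.

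The profile of each gene over the 30 libraries was compared with those of 13795 protein-coding genes by the root mean square difference of log2 CPM centred on each gene's mean. Postn and Prrx2 were nearest to each other, at 0.245, where the median gene stood at 0.914 from Postn. Col3a1 was next for Prrx2 (0.252) and Sulf2 for Postn (0.263). Nearest to Pdgfrb were Pcdhgc3 (0.186), Plekhg2 (0.194) and Notch4 (0.198), and nearest to Prrx1 were Bmpr2 (0.153), Yes1 and Lpp. For Dpp4 they were Blnk, a B cell adaptor (0.231), Wdfy4 (0.262) and B3gnt5 (0.264), rather than Pi16, whose own nearest were Ntrk2 (0.377), Serping1 (0.389) and C4b (0.398). Lepr was most like Itga2 (0.310), Tnfrsf19 and Gnai1, and Pdgfra most like Septin10 (0.225), Slc25a5 and Coro1c. These likenesses mix genotype, time and sample series.

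By GENCODE M39 on GRCm39, all 9 genes are protein-coding. Pdgfra lies at chr5:75311994-75358876 on the plus strand, Pdgfrb at chr18:61178212-61218133 (plus), Lepr at chr4:101574601-101676237 (plus), Prrx1 at chr1:163041844-163142033 (minus) and Prrx2 at chr2:30724984-30774419 (plus). Postn lies at chr3:54268501-54298471 (plus), Acta2 at chr19:34217737-34232990 (minus), Pi16 at chr17:29536654-29549567 (plus) and Dpp4 at chr2:62159798-62242576 (minus). Counting was per gene over all exons and used the strand. Of the overlaps with other genes on the same strand, the only one was that of Mir7025 with 0.6% of Pdgfra exon bases. On the opposite strand, Stambpl1 covered 9.33% of those of Acta2.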

How the data were processed

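Total RNA of fracture callus, depleted of ribosomal and beta globin RNA, was sequenced as stranded libraries. According to the methods and the submitters' processing notes, the authors aligned reads to mm39 with STAR 2.7.0d and used featureCounts with Ensembl annotation to count, for each gene, uniquely mapped reads on the strand of the kit. The deposited values are raw counts per gene and sample, without normalization. Genotype, time and sex came from the labels. The 9 genes and the companion and marker lists were chosen with earlier results of these data known. Samples of a group are separate replicates by the labels. Libraries of a group differed by more than counting noise.

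Each time point was fitted with edgeR 4.0.16 in R 4.3.3 (filterByExpr, TMM, genotype and sex, robust quasi-likelihood F tests, Benjamini-Hochberg adjustment over all genes tested, threshold 0.05). Models of 2 time points tested changes over time and of the genotype difference, and a model of all 30 mice gave an average difference over 6-, 10- and 14-dpf as well as how it changed between 6- and 10-dpf. All adjusted p-values are from edgeR unless DESeq2 1.42.0 is named. Levels are CPM on 1 TMM scale over all 30 libraries, and log2 CPM used a prior count of 2. CPM per kb used exon lengths of GENCODE M39, a later annotation than the authors', which held 54749 of the 55416 gene IDs. Standard errors were obtained by dividing the absolute log2 fold change by the root of F. Named were the 9 genes, Apex1, up to 2 genes called in each direction per list and time point with the largest changes, and the 3 genes most alike in profile (mean of at least 1 CPM), which for Acta2 are not reported here. Where further called genes of a list are named, they were chosen after their values were seen. Alternatives were DESeq2's Wald test, no sex term, DESeq2 size factors, library size alone, TMM without the 20 most abundant genes, at least 10 counts in every sample, no filter, a single model of all 30 mice, a replicate block instead of sex, and each mouse left out in turn. The average over 6- and 10-dpf only was added after seeing the data. The tests were checked on simulated counts. The authors' own comparisons were not used.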

Additional observations from a re-analysis of the deposited data

Results flagged for a closer look

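Of 45 combinations of the 9 genes with groups of 4 or 5 mice, 2 held a mouse far from the others, by the gap to its nearest neighbour over the range of the group, and chance gives about 1 in 20. Pdgfra in WT replicate 4 of 10-dpf stood at 202 CPM below 230.3, 233 and 236 CPM, with a gap of 0.846 of the range on the log2 scale, and remained above all P-Apex1KO mice. Without that mouse the difference of Pdgfra at 10-dpf was -0.71 and was called. Pi16 in P-Apex1KO replicate 3 of 3-dpf, the only female of that group, stood at 60.3 CPM above 49.6, 49.7 and 50.3 CPM, with a gap of 0.923 of the range.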

How the results depend on the processing

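In the main fits 10.9% of all genes tested were called at 6-dpf and 11.3% at 14-dpf. That number changed with the setting too, as given further below. The counts of members here are not set against the share of all genes under each setting or with a mouse left out. They therefore describe the threshold and not the members alone. The members called at 6-dpf numbered 1, and 4 with DESeq2, 0 without sex, 2 with library size alone, 2 without a filter, 0 with the replicate block and 2 with all 30 mice in the model. At 14-dpf they numbered 3, and 5 with DESeq2, 8 without sex, 5 with the replicate block and 8 with all 30 mice in the model. The change of the genotype difference from 3- to 6-dpf gained 1 member with DESeq2 and 1 with library size alone, that from 10- to 14-dpf gained 3 with DESeq2 and 1 without a filter, and the change from 10- to 14-dpf in P-Apex1KO gained 1 with DESeq2 and 1 without sex. The average over 6- and 10-dpf only called 3 in place of 8. The cause was not tested. Leaving out a mouse gave 0 to 2 members at 6-dpf, 0 to 3 at 10-dpf, 2 to 6 at 14-dpf, 7 to 8 in the average, 1 to 4 from 3- to 6-dpf in WT, 2 to 4 in P-Apex1KO, 3 to 6 from 10- to 14-dpf in WT, 0 to 1 for the change of difference from 3- to 6-dpf and 0 to 2 from 10- to 14-dpf. No member that was called turned in direction. Of single-gene values with all mice, 817 kept their side of the threshold, 37 gained a call and 19 lost it, and with a mouse left out these were 1548, 21 and 51.

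Genes called in all moved by more than 1.5 times at 6-dpf, from 2212 to 677 with the block and 3594 with library size alone, at 10-dpf, from 1221 to 750 without sex and 2187 with DESeq2, and at 14-dpf, from 2289 to 6849 without sex and 6188 with all 30 mice. At 3-dpf it went from 0 to 85 with DESeq2, 38 with all 30 mice, 4 without a filter and 1 with the block. For the change of difference from 3- to 6-dpf it went from 267 to 718, 433 and 43 with DESeq2, library size alone and the block, for that from 10- to 14-dpf from 86 to 465, 207, 57, 8 and 0 with DESeq2, no filter, TMM without the top 20 genes, library size alone and the block, and for that from 6- to 10-dpf from 678 to 89 with the block. For the change in P-Apex1KO from 10- to 14-dpf it went from 51 to 550, 672 and 217 with DESeq2, without sex and without a filter, and for the average from 8200 to 4467 over 6- and 10-dpf only. The share of calls that were lower fell with library size alone from 51.4% to 22.6% at 6-dpf, 53.3% to 35.3% at 10-dpf and 62.2% to 29.0% at 14-dpf. Replicate numbers were not taken to pair the mice. Same-numbered WT and P-Apex1KO mice correlated in their deviations from the group means at -0.25 to 0.39. Not every mouse was closest to its own number, although most were at 3-dpf. With so few mice per group this cannot exclude a pairing, and the labels name none. Within-genotype changes could not be fitted with the block.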
